A study of Mus musculus with 16 samples.

Results

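The genes described here are 10 markers of microglia, the resident macrophages of the retina, and of macrophages in general: Cd68, Csf1r, Cx3cr1, Aif1, Trem2, Tyrobp, P2ry12, Itgam, Lgals3 and Ctss. They were taken by name from the platform's annotation, each with its single transcript cluster that carries 1 gene symbol, and all 10 of 10 were found among 19938 measured genes. The values are log2 expression values of 16 Affymetrix Mouse Gene 1.0 ST arrays. The first tissue was the retinal pigment epithelium (RPE), the epithelial sheet that nourishes the photoreceptors and takes up their shed tips. The other was the neurosensory retina (NSR), with its photoreceptors, neurons and glia. Of 8 male Balb/cJ mice, an albino strain, aged 10 weeks, 4 had spent 18 hours under cool white fluorescent light of 10000 lux, with death 4 hours later, while 4 control mice had stayed on a 12-hour light and 12-hour dark cycle. Each mouse gave 1 RPE and 1 NSR array, so that light-exposed RPE, control RPE, light-exposed NSR and control NSR each held 4 mice. Bright light and the change of light schedule cannot be told apart in this design.

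Microglia depend on signals through the receptor Csf1r, and in the resting state they carry Cx3cr1, the receptor of the neuronal chemokine fractalkine, and P2ry12, a receptor for nucleotides that guides their processes to damage. Tyrobp is the signalling adaptor of Trem2, a receptor for lipids and cell debris, and of other myeloid receptors. Cd68 and the protease cathepsin S (Ctss) belong to the lysosome, Lgals3 codes for galectin-3, which binds sugar chains, Itgam is the alpha chain of the complement receptor CR3, and Aif1 (IBA1) binds actin and is the usual stain for these cells. After photoreceptor injury, microglia are known to move into the outer retina and to take up debris. Cd68, Ctss and Lgals3 are not restricted to microglia, and phagocytic epithelia can make lysosomal genes too.

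The arrays carried their labelled tissues. The mean level of 15 RPE markers was 10.87 ± 0.13 in light-exposed RPE and 11.47 ± 0.02 in control RPE, against 6.68 ± 0.06 in light-exposed NSR and 7.11 ± 0.15 in control NSR (SD, n = 4 each). The mean of 13 rod markers was 8.54 ± 0.39, 8.76 ± 0.22, 11.53 ± 0.07 and 12.09 ± 0.02 in the same order. RPE control 2 stood apart with a mean of 7.99 over 10 lens markers, where the other control RPE arrays had 6.13 to 6.26. RPE light 2 stood apart with 8.34 over 9 markers of cornea and ciliary body, where the other light-exposed RPE arrays had 6.28 to 6.35. RPE light 1 had the highest rod level of its group, 9.10, where the other 3 had 8.24 to 8.46. Results that rest on these 3 arrays are given without them too. The arrays then left differ in rod level, with 8.24 and 8.34 in light-exposed RPE against 8.94, 8.61 and 8.52 in control RPE. That fit is thus not balanced for rod transcripts. RMA values have no zero and no detection measure, so that no marker can be called absent. P2ry12 lay in the dimmest 25% of genes in all 4 groups, and Itgam in all but light-exposed RPE, so that the size of their differences is uncertain.

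In the RPE after light, Cd68 rose 6.78-fold and Itgam 1.45-fold, Csf1r was 2.20-fold lower, and the other 7 markers did not pass the test. Called higher were 2 of 10 markers, against 9.08% of all genes, and called lower was 1 of 10, against 8.53% of all genes (limma, Benjamini-Hochberg adjusted p under 0.05). The median log2 difference of the 10 markers was -0.12, beside -0.005 over all genes. Cd68, the lysosomal membrane protein of phagocytes, had 10.35, 10.58, 11.29 and 10.31 in the 4 light-exposed RPE arrays, against 7.48, 8.02, 8.02 and 7.96 in the 4 control RPE arrays. The 2 groups lay far apart, and RPE light 3 was the highest. The log2 difference was 2.76 (SE 0.21, limma adjusted p = 3.49e-05), the 11th largest rise of 19938 genes.

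Csf1r, the receptor for the survival factors CSF1 and IL-34, moved the other way. It had 9.24, 9.19, 8.69 and 9.29 in light-exposed RPE, against 10.31, 10.09, 10.35 and 10.22 in control RPE. All 4 light-exposed arrays lay below all 4 control arrays, and RPE light 3, the highest for Cd68, was the lowest for Csf1r. The log2 difference was -1.14 (SE 0.13, limma adjusted p = 0.00025), the 97th largest fall. Without the 3 RPE arrays that stood apart the log2 differences were 2.98 for Cd68 (limma adjusted p = 0.00244) and -1.30 for Csf1r (limma adjusted p = 0.00592).

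Itgam had 6.39, 5.70, 5.80 and 5.65 in light-exposed RPE, against 5.34, 5.27, 5.49 and 5.30 in control RPE. The groups did not overlap, and RPE light 1 was well above the other 3. The log2 difference was 0.54 (SE 0.15, limma adjusted p = 0.0307). It was 0.37 without RPE light 1 (limma adjusted p = 0.0114). The call was lost without the 3 arrays that stood apart (log2 0.35, limma adjusted p = 0.0767), without RPE control 1, 2 or 4 (adjusted p = 0.0707, 0.0759 and 0.075 by limma) and without RPE light 3 (0.0556). Itgb2, the beta chain that pairs with Itgam, had a log2 difference of 0.12 (limma adjusted p = 0.422).

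The other 7 markers did not pass the test in the RPE. Cx3cr1 had 8.13, 7.75, 7.56 and 7.84 in light-exposed RPE, against 7.92, 8.04, 8.32 and 7.90 in control RPE, a log2 difference of -0.22 (95% interval -0.51 to 0.06). P2ry12 had 5.15, 4.93, 5.01 and 5.2 in light-exposed RPE, against 5.21, 5.2, 5.80 and 5.34 in control RPE. Its groups touched without overlapping, and the log2 difference of -0.32 missed the threshold (limma adjusted p = 0.141). Aif1 (-0.12, 95% interval -0.49 to 0.25), Trem2 (-0.08, -0.25 to 0.08) and Tyrobp (-0.13, -0.54 to 0.27) had small log2 differences with overlapping arrays. Lgals3 lay between 7.66 and 7.95 in light-exposed RPE and between 7.64 and 7.84 in control RPE, and the 95% interval of its log2 difference was -0.18 to 0.18. Ctss had 9.02, 8.76, 8.12 and 8.57 in light-exposed RPE, against 8.88, 8.79, 9.22 and 9.0 in control RPE. Its log2 difference of -0.35 (SE 0.17, limma adjusted p = 0.22) became -0.69 without the 3 arrays that stood apart and was then called lower (limma adjusted p = 0.0375).

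**Figure D1:**
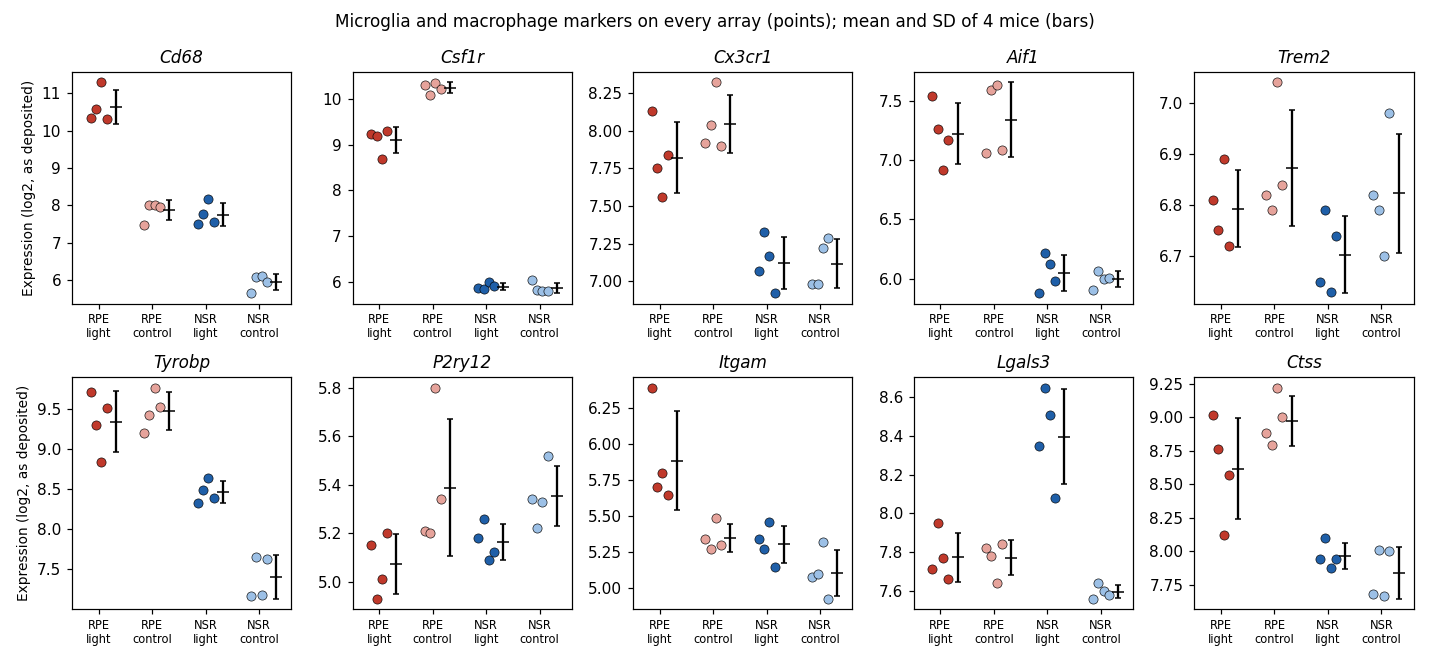
Log2 expression values of the 10 markers on each of 16 arrays (points), with the mean and SD of 4 mice beside them, for light-exposed and control RPE and light-exposed and control NSR. Each panel has its own vertical scale. Cd68 reaches 11.29 in light-exposed RPE, Csf1r is highest in control RPE at 10.24 ± 0.11, and Lgals3 and Tyrobp are raised in light-exposed NSR.

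In the NSR after light, Cd68 rose 3.48-fold, Tyrobp 2.07-fold and Lgals3 1.75-fold, and the other 7 markers did not pass the test. Called higher were 3 of 10 markers, against 8.87% of all genes, and called lower were 0 of 10, against 6.24% of all genes, where limma's unadjusted p was under 0.05 in that direction for P2ry12 alone. The median log2 difference of the 10 markers was 0.09, beside -0.018 over all genes. Cd68 had 7.5, 7.76, 8.18 and 7.55 in light-exposed NSR, against 5.65, 6.08, 6.12 and 5.94 in control NSR. The groups were well separated, with a log2 difference of 1.80 (SE 0.15, limma adjusted p = 5.28e-06).

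Tyrobp had 8.32, 8.49, 8.64 and 8.38 in light-exposed NSR, against 7.16, 7.65, 7.18 and 7.63 in control NSR. The control arrays fell into 2 high and 2 low ones, all below the light-exposed arrays (log2 1.05, SE 0.12, limma adjusted p = 9.54e-05). Trem2, which signals through Tyrobp, had 6.65, 6.79, 6.63 and 6.74 in light-exposed NSR, against 6.82, 6.79, 6.70 and 6.98 in control NSR, a log2 difference of -0.12 (95% interval -0.29 to 0.04). The interval of Trem2 thus lay below that of Tyrobp, 0.78 to 1.32. Lgals3 had 8.35, 8.65, 8.51 and 8.08 in light-exposed NSR, against 7.56, 7.64, 7.60 and 7.58 in control NSR. The control arrays were nearly level, and the lowest light-exposed array stood clear of them (log2 0.80, SE 0.11, limma adjusted p = 0.000235).

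Csf1r lay between 5.84 and 6.0 in light-exposed NSR and between 5.80 and 6.04 in control NSR (log2 0.03, 95% interval -0.13 to 0.19). Cx3cr1 had means of 7.12 ± 0.17 in light-exposed NSR and 7.12 ± 0.16 in control NSR, Aif1 6.05 ± 0.15 and 6.0 ± 0.07, and Ctss 7.97 ± 0.09 and 7.84 ± 0.19 (SD, n = 4 each). The 95% intervals of their log2 differences were -0.22 to 0.23 for Cx3cr1, -0.13 to 0.23 for Aif1 and -0.08 to 0.34 for Ctss. Changes of 2-fold in the array values lay outside each of these intervals. Csf1r and Aif1 lay below the median gene mean of 6.81 here, and how array values follow transcript amounts at such levels was not tested. P2ry12 had 5.18, 5.26, 5.09 and 5.12 in light-exposed NSR, against 5.34, 5.22, 5.33 and 5.52 in control NSR (log2 -0.19, limma adjusted p = 0.123). Itgam averaged 5.31 ± 0.13 in light-exposed NSR and 5.11 ± 0.16 in control NSR (log2 0.20, limma adjusted p = 0.178). In whole tissue, fewer cells of a type and less RNA per cell cannot be told apart, and the same holds for a rise.

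**Figure D2:**
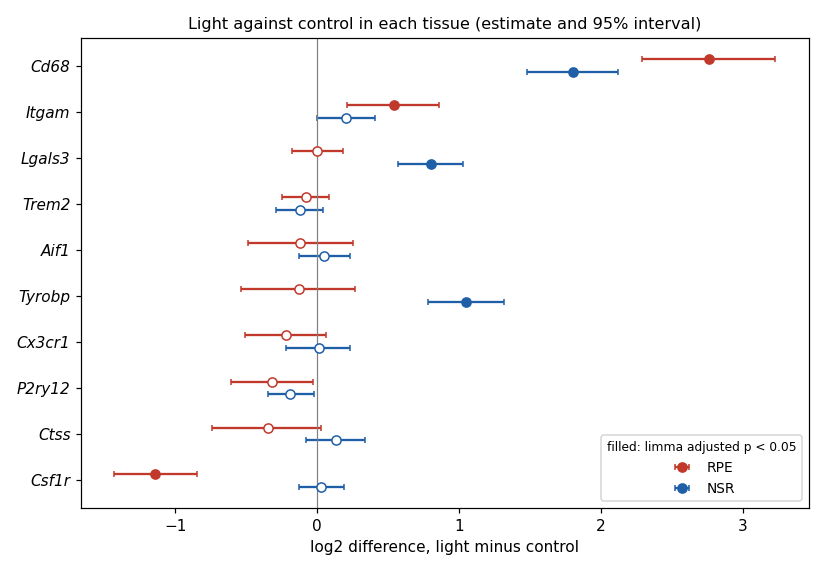
Log2 difference between light-exposed and control arrays for each of the 10 markers, with its 95% interval from limma, in the RPE and in the NSR (n = 4 mice per group). Filled points passed an adjusted p of 0.05: Cd68, Itgam and Csf1r in the RPE and Cd68, Tyrobp and Lgals3 in the NSR.

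The response to light was compared between the tissues in a fit of all 16 arrays. Called higher in the RPE response was 1 of 10 markers, against 5.16% of all genes, and called lower were 3 of 10, against 8.05% of all genes. The median over the 10 markers was -0.20, beside 0.018 over all genes. The response of Cd68 was larger in the RPE than in the NSR by 0.96 on the log2 scale (SE 0.28, limma adjusted p = 0.0294). This call was lost without any one of RPE control 1, NSR light 1, NSR light 4, NSR control 2 or NSR control 3, where the difference stayed between 0.83 and 0.92 and the limma adjusted p between 0.0587 and 0.0639. The mouse gave both tissues, and with the mouse as a block the call of Cd68 held (limma adjusted p = 0.000145). The responses of Csf1r (log2 -1.17, SE 0.15, limma adjusted p = 4.61e-05), Tyrobp (-1.18, SE 0.24, 0.00233) and Lgals3 (-0.81, SE 0.14, 0.000667) were lower in the RPE. The difference of Ctss, -0.48, missed the threshold (limma adjusted p = 0.158) and was called without RPE light 1 (-0.62, 0.0395) and without the 3 arrays that stood apart (-0.82, 0.00954). Itgam, whose rise was called in the RPE and not in the NSR, had no called difference between them (0.33, SE 0.18, limma adjusted p = 0.29).

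The RPE arrays held more of most of these transcripts than the NSR arrays. In control mice 6 of 10 markers were called higher in the RPE and 0 lower, against 30.8% of all genes higher and 24.2% lower, and 0 markers had an unadjusted p under 0.05 in the lower direction by limma. The median log2 difference of the 10 markers was 1.03, beside 0.044 over all genes. Of 12 fibroblast and pericyte genes, 9 were also called higher in control RPE than in control NSR and 2 lower. Of 12 endothelial genes 5 were called higher there and 4 lower. Which cells of the RPE samples carried the markers was not tested. Csf1r was 20.7-fold higher in control RPE than in control NSR (log2 4.37, SE 0.11, limma adjusted p = 5.38e-16), with 10.24 ± 0.11 and 5.87 ± 0.11 (SD, n = 4 each). Tyrobp was 4.19-fold, Cd68 3.79-fold, Aif1 2.53-fold, Ctss 2.19-fold and Cx3cr1 1.90-fold higher. For each of these 6 markers the control RPE arrays lay above all control NSR arrays, which also held for 5873 of 19938 genes. In either direction the arrays did not overlap for 52.2% of all genes. Trem2 averaged 6.87 ± 0.11 and 6.82 ± 0.12, P2ry12 5.39 ± 0.28 and 5.35 ± 0.12, Itgam 5.35 ± 0.09 and 5.11 ± 0.16, and Lgals3 7.77 ± 0.09 and 7.60 ± 0.03 in control RPE and control NSR, with no call.

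In light-exposed mice 7 of 10 markers were called higher in the RPE and 1 lower, against 34.4% of all genes higher and 23.6% lower, and their median log2 difference was 0.67, beside 0.077 over all genes. As the test of the difference between the responses above showed, the ratio of the tissues widened for Cd68, to 7.38-fold, and narrowed for Csf1r, to 9.20-fold, and for Tyrobp, to 1.84-fold. Lgals3, with 7.77 ± 0.13 in light-exposed RPE and 8.40 ± 0.25 in light-exposed NSR, was 1.55-fold lower in the RPE (log2 -0.63, SE 0.10, limma adjusted p = 2.44e-05). Itgam was 1.49-fold higher in the RPE (limma adjusted p = 0.000983). The markers thus differed in the order of the groups. Cd68 was highest in light-exposed RPE, then in control RPE and light-exposed NSR, whose arrays overlapped, and lowest in control NSR. Csf1r ran from control RPE through light-exposed RPE to the 2 NSR groups, which overlapped. Tyrobp was highest in the 2 RPE groups, which overlapped, then in light-exposed NSR and lowest in control NSR. Lgals3 was highest in light-exposed NSR, followed by the 2 RPE groups, which overlapped, and then control NSR, which did not differ from control RPE by the test (log2 0.18, limma adjusted p = 0.147). For Lgals3 the arrays of control RPE and control NSR touched at 7.64 without overlapping. Cx3cr1, Aif1 and Ctss had both RPE groups on top, and light and control overlapped in each tissue. For Trem2 light and control overlapped in both tissues, and RPE and NSR overlapped in light-exposed and in control mice.

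**Figure D3:**
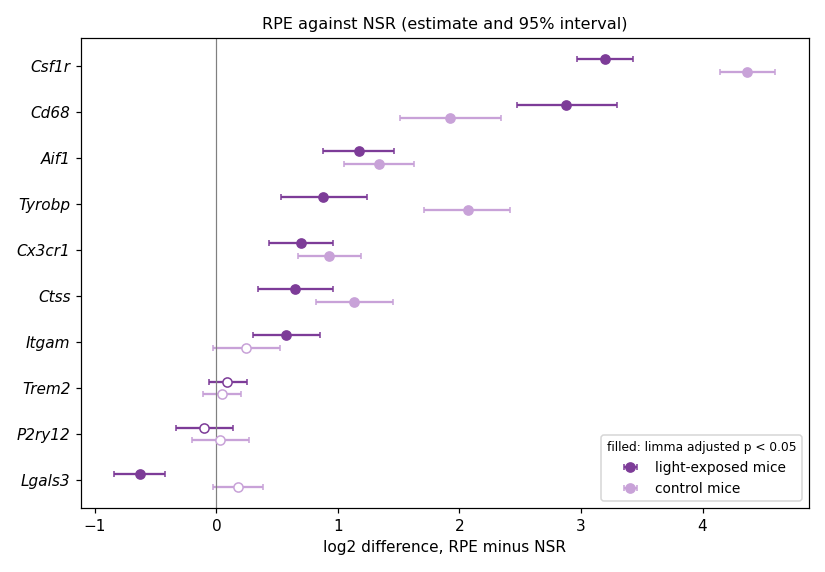
Log2 difference between RPE and NSR for each marker, with its 95% interval from limma, in light-exposed and in control mice (n = 4 mice per group). Filled points passed an adjusted p of 0.05. Csf1r and Tyrobp differ less between the tissues after light, Cd68 differs more, and Lgals3 lies at -0.63 after light.

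Several markers had their highest or lowest value on the same RPE array. RPE control 3 was the highest of the 4 control RPE arrays for 9 of 10 markers, all except Lgals3, of which it was the lowest. Among light-exposed RPE arrays, RPE light 1 was the highest for 5 markers, Cx3cr1, Aif1, Tyrobp, Itgam and Ctss, and RPE light 3 the lowest for 5, Csf1r, Cx3cr1, Aif1, Tyrobp and Ctss. The mean of 24 other leukocyte genes was also highest in RPE light 1 (6.98) and lowest in RPE light 3 (6.64) of that group, and highest in RPE control 3 (6.81) of the control RPE arrays. Cd68 and Trem2 were the 2 markers that were highest in RPE light 3.

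The promoters of 4 members with different responses are shown: Cd68 rose in both tissues, Itgam was called in the RPE, Lgals3 in the NSR and Trem2 in neither. Each runs 5′ to 3′ from 250 bases before to 50 bases after the start of the gene, from RefSeq on GRCm38.p6, and 8 of the 10 members were matched, while Csf1r and Tyrobp were not. Capitals mark GAGGAA, the core of sites of the myeloid factor PU.1, TGANTCA, the AP-1 site, and CACGTG, the E-box core, on either strand, with no overlap between matches.
Cd68, chr11:69666121-69666420, minus strand: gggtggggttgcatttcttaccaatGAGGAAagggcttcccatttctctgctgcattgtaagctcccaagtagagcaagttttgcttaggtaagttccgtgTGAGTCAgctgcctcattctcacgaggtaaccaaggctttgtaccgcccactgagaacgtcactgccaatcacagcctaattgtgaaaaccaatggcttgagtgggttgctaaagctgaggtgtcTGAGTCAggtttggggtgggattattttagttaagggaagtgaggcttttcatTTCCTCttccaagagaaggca
Itgam, chr7:128062390-128062689, plus strand: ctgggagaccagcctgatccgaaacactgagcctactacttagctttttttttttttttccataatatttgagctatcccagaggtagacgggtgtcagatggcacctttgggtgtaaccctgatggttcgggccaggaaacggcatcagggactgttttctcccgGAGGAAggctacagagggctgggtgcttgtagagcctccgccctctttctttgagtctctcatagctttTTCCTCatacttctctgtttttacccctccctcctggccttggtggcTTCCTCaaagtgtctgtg
Lgals3, chr14:47373610-47373909, plus strand: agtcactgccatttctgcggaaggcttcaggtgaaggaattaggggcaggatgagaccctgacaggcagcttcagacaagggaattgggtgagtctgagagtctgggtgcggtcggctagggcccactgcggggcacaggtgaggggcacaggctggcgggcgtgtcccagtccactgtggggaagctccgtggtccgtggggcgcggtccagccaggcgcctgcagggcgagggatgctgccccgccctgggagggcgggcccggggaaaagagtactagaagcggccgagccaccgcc
Trem2, chr17:48346151-48346450, plus strand: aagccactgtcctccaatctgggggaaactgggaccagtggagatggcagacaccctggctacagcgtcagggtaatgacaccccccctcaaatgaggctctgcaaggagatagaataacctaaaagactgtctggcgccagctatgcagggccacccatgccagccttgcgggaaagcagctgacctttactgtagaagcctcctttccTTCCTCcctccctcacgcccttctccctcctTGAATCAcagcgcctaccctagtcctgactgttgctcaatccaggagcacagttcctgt
The Cd68 promoter holds 2 copies of TGAGTCA, starting 149 and 24 bases before the start of the gene, and 2 or more copies of TGANTCA are in 0.46% of 32851 promoters. The Trem2 promoter holds 1 copy, and 1 or more are in 7.81% of promoters. GAGGAA is in 5 of the 8 matched promoters (Cd68, Itgam, Trem2, Aif1 and Ctss), against 28.3% of all promoters, with 3 copies in Itgam. CACGTG is in that of P2ry12, against 7.15% of all promoters, and Lgals3 and Cx3cr1 hold none of these letters in this window. These matches are a description of the letters and carry no test of binding.

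Of 18 measured genes for ligands and signalling partners of the markers, 6 rose and 2 fell in the RPE (median log2 difference 0.16) and 10 were not called, where 17.6% of all genes were called. In the NSR 6 rose, 1 fell and 11 were not called (median 0.10), where 15.1% of all genes were called. Without the 3 RPE arrays that stood apart, 3 of these 6 rises in the RPE were called, those of Csf1, Icam1 and Ccl2, and 10.3% of all genes were called. Csf1, a ligand of Csf1r, rose in both tissues. It had 6.68, 7.62, 7.20 and 7.46 in light-exposed RPE, against 6.05, 6.34, 6.41 and 6.55 in control RPE (1.87-fold, limma adjusted p = 0.00759). It had 6.89, 6.99, 6.80 and 6.79 in light-exposed NSR, against 5.84, 5.90, 5.98 and 5.85 in control NSR (1.97-fold, limma adjusted p = 1.57e-06). Il34, the other ligand, named after its values were seen, rose in the RPE by 0.47 on the log2 scale (limma adjusted p = 0.0354, and 0.179 without the 3 arrays) and missed the threshold in the NSR (0.30, adjusted p = 0.0679). Ccl2, which attracts monocytes, rose 3.52-fold in the RPE and 18.6-fold in the NSR. Icam1, an adhesion ligand of CR3, rose 1.86-fold in the RPE and, on the log2 scale, by 0.43 in the NSR. Lgals3bp, a glycoprotein bound by galectin-3, rose 2.00-fold in the NSR and by 0.38 on the log2 scale in the RPE, a call lost without the 3 arrays. Of the other adaptors and receptors of the Tyrobp pathway, Hcst, Trem1 and Clec5a had log2 differences between -0.13 and 0.21 with no call in either tissue. Syk, the kinase below Tyrobp, rose by 0.28 in the RPE (limma adjusted p = 0.0353, and 0.0998 without the 3 arrays) and had -0.21 in the NSR (0.149). Itgb2, Hcst, Trem1, Clec5a and Syk, and Lamp1, Itgad and Treml4 among the relatives, were chosen after their values were seen.

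Relatives of the markers were compared by family, where 17.6% of all genes were called in the RPE and 15.1% in the NSR. Of 3 other lysosome-associated membrane protein genes related to Cd68, Lamp2 rose 1.86-fold in the NSR (limma adjusted p = 5.28e-06) and Lamp3 was 1.40-fold lower, while Lamp1 had -0.04. In the RPE 0 of these 3 were called by limma and 1, Lamp1, had an unadjusted p under 0.05, at log2 differences of -0.07 to 0.16, while Cd68 rose there by 2.76. Of 13 other cathepsins, 4 rose and 1 fell in the NSR and 2 rose and 3 fell in the RPE. Ctsc, which activates granule proteases, rose 3.07-fold in the NSR, where Ctss differed by 0.13 on the log2 scale, and Ctsc fell by 0.36 on that scale in the RPE (limma adjusted p = 0.00359). Ctsh rose 2.16-fold in the NSR, Ctsk 1.65-fold and Ctsb 1.41-fold in the RPE, and Ctsf was 1.76-fold lower in the RPE. Of 8 other galectin genes, counting Lgals3bp, 3 rose in the NSR and 2 rose and 1 fell in the RPE. Lgals1 rose 4.82-fold in the NSR (limma adjusted p = 6.55e-07) and 1.52-fold in the RPE (limma adjusted p = 0.00284), so that Lgals1 was called in both tissues while Lgals3 was called in the NSR. The other 4 beta2 integrin genes and the other 5 genes of the Trem family had 0 calls in either tissue by limma. At an unadjusted p under 0.05 stood 1 integrin gene, Itgad, in the RPE and 0 in the NSR, and 1 Trem family gene, Treml4, in each tissue. Their log2 differences lay between -0.17 and 0.20 in the RPE and between -0.23 and 0.17 in the NSR. Of 6 other P2Y receptors, P2ry1, known from Müller cells and neurons too, rose 1.58-fold in the NSR.

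Of 14 other genes of microglia in the resting state, 0 rose and 1 fell in the RPE (median -0.06), where 17.6% of all genes were called, and 2 rose and 1 fell in the NSR (median -0.05), where 15.1% of all genes were called. Siglech, a microglial lectin, was 1.34-fold lower in the NSR (limma adjusted p = 0.00622), C1qc and C1qb, chains of complement C1q, rose 1.47-fold and 1.20-fold there, and Olfml3 was 1.65-fold lower in the RPE (limma adjusted p = 0.00214). Of 16 genes of tissue macrophages, 0 rose and 2 fell in the RPE (median -0.05) and 1 rose in the NSR (median -0.12). H2-Aa and Cd74, which take part in antigen presentation, were 1.75-fold and 1.34-fold lower in the RPE, and Adgre1, a macrophage surface protein, rose 1.23-fold in the NSR. The call of Cd74 was lost without the 3 RPE arrays that stood apart (limma adjusted p = 0.116). Between the tissues of control mice, 12 of the 16 tissue macrophage genes were called higher in the RPE and 1 lower. Of all genes 30.8% were called higher there and 24.2% lower. Mrc1, the mannose receptor of border macrophages, was 6.80-fold higher in control RPE than in control NSR, and Lyve1 was 2.48-fold lower.

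Of 19 genes of activated phagocytes, 4 are cathepsins counted above too, and Apoe is also among the ligands and partners. In the RPE 4 rose and 3 fell (median 0.05), where 17.6% of all genes were called. In the NSR 9 rose and 1 fell (median 0.32), where 15.1% of all genes were called. Apoe fell in both tissues (log2 -0.49 in the RPE and -0.81 in the NSR). Lpl (-0.64) and Ctsl (-0.20) fell in the RPE and rose in the NSR (0.83 and 0.59). Axl, a receptor for dying cells, rose 2.30-fold in the NSR, the lysozyme gene Lyz2 1.90-fold and Ch25h, a sterol hydroxylase, 1.87-fold. In the RPE, Gpnmb, a protein of melanosomes and phagosomes, rose 1.96-fold, the tetraspanin gene Cd9 1.65-fold and Ch25h 1.62-fold. Several of these genes, Gpnmb, Axl and Apoe among them, are known from RPE or glia as well. Of 24 general leukocyte genes, 1 rose in the RPE (Fcgr2b, an inhibitory Fc receptor, 1.36-fold, with a limma adjusted p of 0.0925 without the 3 RPE arrays that stood apart) and 8 rose and 1 fell in the NSR. Cybb, the catalytic subunit of the phagocyte oxidase, rose 2.73-fold in the NSR, Plek 1.82-fold and Lcp1, an actin-bundling protein of leukocytes, 1.66-fold. In control NSR, Cybb, Lcp1, Lyz2, Ch25h and Adgre1 lay in the dimmest 25% of genes, and Ch25h did so in control RPE too. The size of these rises is thus uncertain.

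**Figure D4:**
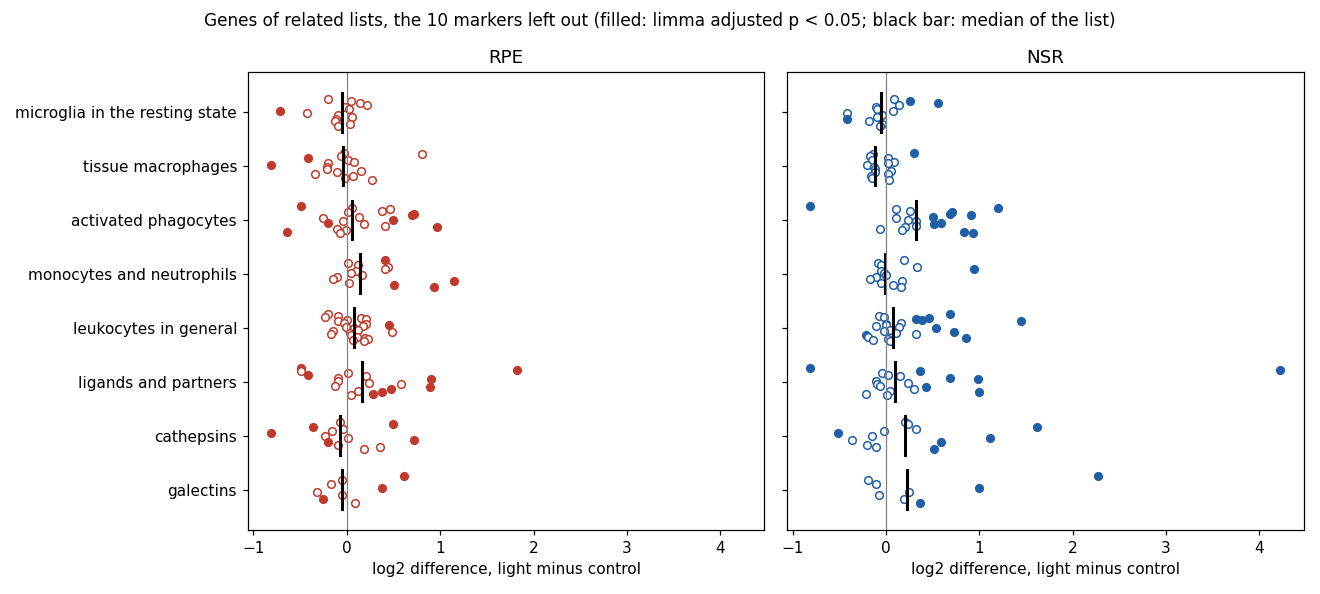
Log2 difference between light-exposed and control arrays for each gene of 8 related lists, without the 10 markers, in the RPE and in the NSR. Filled points passed a limma adjusted p of 0.05 and black bars are list medians. Activated phagocyte genes have a median of 0.05 in the RPE and 0.32 in the NSR.

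Markers of other cells were set beside these results. Of all genes, 17.6% were called in the RPE, 10.3% there without the 3 arrays that stood apart, and 15.1% in the NSR. Of 14 monocyte and neutrophil genes, 4 rose in the RPE, among them Plac8 (2.22-fold, limma adjusted p = 0.0252) and S100a9 (1.90-fold, limma adjusted p = 0.00107), and 1 in the NSR, Il1b (1.92-fold, limma adjusted p = 0.000664). Plac8 had 6.12, 7.12, 5.55 and 5.92 in light-exposed RPE, highest on RPE light 2, against 4.68, 5.26, 5.43 and 4.74 in control RPE. Without the 3 RPE arrays that stood apart its log2 difference was 0.79, against 1.15 with them, and its call was lost (limma adjusted p = 0.0828), while 3 of the 4 genes, S100a8, S100a9 and Ccr2, were still called. S100a8 and Ccr2 lay in the dimmest 25% of genes in all 4 groups, and Plac8 in all but light-exposed RPE. The size of their differences is thus uncertain. The summed level of these 14 genes ran from 9.54 to 9.79 in light-exposed RPE and from 9.18 to 9.42 in control RPE, and from 9.01 to 9.06 in light-exposed NSR and from 8.78 to 8.96 in control NSR (log2). Beside the fall of Csf1r in the RPE, 10 of 15 RPE markers fell (7 without the 3 arrays), with summed levels of 15.45 to 15.68 in light-exposed RPE and 16.03 to 16.09 in control RPE. Of 10 genes listed for melanocytes, 7 fell in the RPE, with summed levels of 12.24 to 12.55 in light-exposed and 12.91 to 13.11 in control RPE. In control mice 9 of these 10 were called higher in the RPE than in the NSR and 1 lower. Of the 15 RPE markers, pigment genes among them too, 13 were called higher there and 1 lower. Melanocytes and RPE cells cannot be told apart by this list. In the NSR 12 of 13 rod markers fell, with summed levels of 15.41 to 15.59 in light-exposed NSR and up to 16.02 in control NSR, whose arrays all lay above. Of 11 genes of Müller glia, the retina's supporting glia, 3 rose and 6 fell in the NSR, and 2 rose and 2 fell in the RPE. In the NSR Vim and Gfap, which code for intermediate filaments, rose 3.18-fold and 2.73-fold, and Abca8a and Rlbp1, Rlbp1 being also among the RPE markers, were 3.33-fold and 2.90-fold lower. The summed level of the 11 genes ran from 12.89 to 12.98 in light-exposed NSR and from 13.30 to 13.42 in control NSR, and from 13.96 to 14.06 in light-exposed RPE and from 14.23 to 14.25 in control RPE. Between the tissues of control mice, 4 of the 11 were called higher in the RPE and 5 lower, against 30.8% and 24.2% of all genes. Car14 averaged 12.28 in control RPE and 9.10 in control NSR, and Slc1a3 6.48 and 9.46. The summed level in the RPE thus cannot be read as an amount of Müller glia. Fibroblast and pericyte genes had 1 of 12 higher and 1 lower in the RPE, and endothelial genes 1 of 12 higher, which was lost without the 3 arrays. The lists of T, B and NK cells (11 genes) and of mast cells (7 genes) had 0 calls in the RPE by limma, and 0 genes at an unadjusted p under 0.05. The part of these cells in the results on the markers was not tested.

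The genes whose pattern over the 16 arrays lay nearest to that of a marker were found by the root-mean-square distance between profiles, each centred on its own mean. Nearest to Csf1r were Slc22a8, an organic anion transporter gene (distance 0.16), and Fam13a (0.17), where Csf1r itself varied by 1.94 around its mean. Slc22a8 and Fam13a had log2 differences of -1.26 and -1.23 with light in the RPE and were higher in control RPE than in control NSR by 4.30 and 4.55. Nearest to Cd68 were Myof, a membrane repair gene, at 0.51, and Gbp3, an interferon-induced GTPase, at 0.53, so that no measured gene followed Cd68 as closely as these followed Csf1r. Cd68 itself varied by 1.7. For Tyrobp, which varied by 0.86, the nearest were Cryab (0.23) and Akt2 (0.25). For Lgals3, which varied by 0.33, they were Map4k4 (0.12) and Spred1 (0.16). For Itgam, which varied by 0.34, they were Zdhhc3 (0.15) and Scarb2 (0.16). The distances are not scaled, and those of Lgals3 and Itgam are a larger share of the marker's own variation than those of Csf1r. Only the 2 nearest of all genes were taken for each, and none was among the 10 markers.

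Some of the genes next to the markers on the chromosome were called with light. They were Eif4a1, Pdgfrb and Ctsk in the RPE, where 17.6% of all genes were called. In the NSR, where 15.1% of all genes were called, they were Eif4a1 and Igsf10. A link between position and response was not tested. Eif4a1, a translation initiation factor beside Cd68, rose by 0.36 in the RPE (limma adjusted p = 0.00202) and 0.76 in the NSR (3.89e-05) on the log2 scale, where Cd68 rose by 2.76 and 1.80. Mpdu1, on its other side, was not called in either tissue (0.17 in the RPE and 0.15 in the NSR). Pdgfrb, the pericyte receptor gene beside Csf1r, fell by 0.52 in the RPE (limma adjusted p = 0.00313), where Csf1r fell by 1.14, and Hmgxb3 on its other side had 0.09. P2ry12 lies within the span of Med12l, whose log2 differences were -0.04 in the RPE and -0.03 in the NSR. Igsf10, beside P2ry12, rose by 0.51 in the NSR (limma adjusted p = 0.0217), where P2ry12 had -0.19, and had -0.05 in the RPE. Ctsk, beside Ctss, rose by 0.72 in the RPE (limma adjusted p = 0.0012), where Ctss had -0.35, and had -0.36 in the NSR (limma adjusted p = 0.132). The other neighbours were not called with light in either tissue.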

How the data were processed

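RNA of RPE and NSR was measured on 16 one-colour arrays. Per the submitters' processing notes the authors deposited log2 expression values made with RMA in Partek 6.6. The log2 scale was read from the values (2.20 to 13.84), and array medians ran from 6.38 to 6.57. Which annotation and probe filters were used is not given in the sources used here, and the number of arrays limits the precision. Among 120 pairs of arrays 0 were identical. Groups and mice came from the labels, which name no batch.

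Of 35556 transcript clusters 21789 had 1 gene symbol, 1621 several and 12146 none, and RefSeq on GRCm38.p6 held 21698 of the single-symbol ones by their gene identifier, with 0 member symbols changed. Each gene took its brightest single-symbol cluster. Clusters with several symbols were left out, among them 3 shared by Rpl35 and Itgam. Light and control were compared within each tissue, and the difference of responses and the tissues in 1 fit of all 16 arrays, with lmFit and eBayes of limma 3.58.1 in R 4.3.3. The threshold was 0.05 on p-values adjusted by Benjamini-Hochberg over the 19938 genes. The fits were tested on simulated data. Tables and figures used Python 3.11.15, pandas 2.3.3 and matplotlib 3.10.9.

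The members, lists, tests and alternatives were chosen with earlier results of these data known. The rule for named genes took the 10 members, up to 3 called genes of each related list per tissue by size, up to 2 for the control tissues, and the 2 nearest profiles of each member called with light. Fewer are printed. RPE and NSR of 1 mouse are paired by the labels' mouse identifier, and their deviations from group means correlated between -0.011 and 0.053 over 8 mice. Alternatives were other scaling, a filter on dim genes, other priors, array weights, other clusters, the replicate or mouse as a block, a 2-fold threshold, and arrays left out.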

Additional observations from a re-analysis of the deposited data

Results flagged for a closer look

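In 3 of 40 sets of 4 arrays (10 markers in 4 groups) the gap between 1 array and its nearest neighbour took a larger share of their range than the 95% critical value of Dixon's test allows. Cd68 in control RPE had a ratio of 0.887, with RPE control 1 at 7.48 and the other 3 arrays at 7.96 to 8.02. Csf1r in light-exposed RPE had a ratio of 0.833, with RPE light 3 at 8.69 and the others at 9.19 to 9.29. Csf1r in control NSR had a ratio of 0.853, with NSR control 1 at 6.04 and the others at 5.80 to 5.83. Chance alone gives about 5% of such sets. Without RPE control 1 the log2 difference of Cd68 in the RPE was 2.63, and without RPE light 3 that of Csf1r was -1.00.

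The light response of 4 markers differed between the tissues in the fit of all 16 arrays (RPE minus NSR, log2, limma adjusted p under 0.05). The difference was 0.96 for Cd68, which rose in both tissues. It was -1.17 for Csf1r, which fell in the RPE and had 0.03 in the NSR. It was -1.18 for Tyrobp and -0.81 for Lgals3, which rose in the NSR and had -0.13 and -0.001 in the RPE.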

How the results depend on the processing

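The number of arrays and the lack of a detection measure limit what can be said of small differences and of the dim markers P2ry12 and Itgam. Of 931 single-marker values under alternative settings 886 kept direction and side of the threshold, 20 lost the call, 4 gained one and 21 changed sign, the last all for uncalled differences. With a replicate block the log2 differences of Cd68 stayed 2.76 in the RPE and 1.80 in the NSR, and the block changed no marker's call in any comparison. Between light and control the numbers mark different mice, whose deviations correlated between -0.01 and 0.04 in the RPE and between -0.017 and 0.066 in the NSR. At a threshold of at least 2-fold, the calls of Itgam in the RPE and of Lgals3 in the NSR were lost. In the difference of responses those of Cd68 and Lgals3 were lost. For the RPE against the NSR, the call of Cx3cr1 was lost in control mice. After light those of Cx3cr1, Tyrobp, Itgam, Lgals3 and Ctss were lost. Without the 3 RPE arrays that stood apart, 1 marker was higher and 2 were lower in the RPE, where 10.3% of all genes were called. There Itgam was lost and Ctss was called, and Itgam was then also higher in control RPE than in control NSR (log2 0.27, limma adjusted p = 0.0308). The other gene lists in the RPE were also fitted without these arrays, an alternative chosen after seeing the data, which lost the calls named with the lists and those of Ctsl and Lgals8, and added Ccl6, Ctsw, Gpr143, Pde6b and Sag. Pde6b and Sag are rod markers, and the rod level differed between the arrays that were kept. With each array left out in turn, 1 to 2 markers were called higher in the RPE, where Itgam was lost without RPE control 1, 2 or 4 or RPE light 3, and 0 to 1 in the difference of responses, where Cd68 (0.74 to 1.11) was the one lost. The sign of Cx3cr1 in the NSR turned with median centring (-0.015) and quantile normalization (-0.041), and that of Lgals3 in the RPE with array weights (0.01). With arrays left out the log2 differences in the NSR ran from -0.063 to 0.074 for Cx3cr1, -0.005 to 0.109 for Aif1 and -0.002 to 0.087 for Csf1r. In the RPE they ran from -0.06 to 0.036 for Lgals3 and -0.258 to 0.038 for Tyrobp. The difference of responses ran from -0.01 to 0.098 for Trem2 and -0.189 to 0.009 for P2ry12, and control RPE over control NSR from -0.007 to 0.102 for Trem2 and -0.104 to 0.093 for P2ry12. The cause was not tested.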
